A study of Homo sapiens with 16 samples.

Results

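The 2 × 2 design of vehicle, retinoic acid, palbociclib and both agents was read as a test of additivity in SK-N-BE(2)C cells. SK-N-BE(2)C is an established MYCN-amplified neuroblastoma cell line of the adrenergic type, the state that resembles the sympathetic lineage from which the tumour arises. All 16 samples of the series entered, 4 in each group. The groups were DMSO, the solvent control; RA, 10 µM retinoic acid; PB, 1 µM palbociclib; and PB+RA, both agents at these doses. All 4 groups were grown in the same medium. The replicates of this single line are described by the study as separately plated passages, and they carry numbers from 1 to 4 in every group. For each of 15415 genes tested of 27037 in the count table, the effect of RA in the presence of PB (PB+RA over PB) was set against the effect of RA without it (RA over DMSO). The difference between both log2 fold changes is the log2 interaction, which is 0 where the agents multiply each other's effect without change. It is the same number whichever agent is taken first.

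Palbociclib occupies the kinases CDK4 and CDK6, which with cyclin D phosphorylate the retinoblastoma protein RB and so free E2F transcription factors to drive genes of DNA synthesis. Genes of mitosis are expressed later in the cycle and are controlled largely through the DREAM and MYB-MuvB complexes, which recognise the CHR element. Retinoic acid binds nuclear receptors of the RAR family, which sit with RXR on repeated half-sites of DNA and switch on genes such as RARB and the retinoid-degrading CYP26 enzymes. In neuroblastoma cells both routes are known for slowing division and for neuronal differentiation, and the design asks where both agents together do more, or less, than their separate effects would give.

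Total counts lay between 19.5 and 31.6 M per sample, so that a gene with 0 counts could stand at up to 0.0949 to 0.154 CPM (a gene's count scaled to a common library total), depending on the library, for counting error only. All 11 adrenergic markers were tested, and SOX10, PECAM1, PTPRC and HBB, which define Schwann, endothelial and blood cells, stayed under the count filter. Of these adrenergic markers 4 were below additive, as were 2 of 5 tested Schwann and glial markers, 3 of 8 tested fibroblast and endothelial markers and 0 of 2 tested blood markers. The share below additive over all tested genes was 6.36%. The part of other cell types in the results was not tested. The third principal component held 10.8% of the variance and set the first 2 replicate numbers apart from the last 2 in every group, so calls within each set are given where they differ. Levels below are CPM scaled by TMM factors, in the order of replicates 1 to 4. Values compare a gene with itself, not with other genes, since CPM carries no correction for length. A gene is called where edgeR's quasi-likelihood test, with the replicate number as a block and Benjamini-Hochberg adjustment across the table, gave an adjusted p under 0.05 and the absolute log2 interaction was above 0.5.

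Departures from additivity were mostly downward. PB+RA lay below the level that multiplied single effects give for 981 genes (6.36% of those tested) and above it for 190 genes (1.23%). The log2 interaction of the genes below additive ran from -4.40 to -0.50 with a median of -0.78, and that of the genes above additive from 0.50 to 2.81 with a median of 0.80. Over all tested genes the median was -0.04. For 8863 genes (57.5%) the 95% interval of the interaction lay wholly within 0.5 of 0. Of all calls 16.2% were above additive, a share that was 27.5% (295 above and 776 below) after a correction of each library for GC content and length, and 29.5% (308 and 735) in replicates 3 and 4 alone. With no replicate block the calls numbered 64 above and 466 below, of which 63 and 465 were among those of the blocked fit. The sign was the same in replicates 1 and 2 as in replicates 3 and 4 for 189 of the 190 genes above additive and for 976 of the 981 below. These genes were called on all 4 replicates, so a shared sign was largely set by the calling. Over the 15135 genes in both replicate sets, the log2 interactions of the sets correlated at r = 0.50. The RNA came from whole cultures, so fewer cells of a state and less RNA per cell cannot be told apart.

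Additivity was also judged in CPM, where the expected level of PB+RA is PB plus RA minus DMSO. On this scale 441 genes (2.86%) lay above and 744 (4.83%) below the sum, at an adjusted p below 0.05 from limma and a departure of more than 35% of the gene's mean over 16 samples. Both scales called 509 genes below and 149 above. A further 463 genes were below on the log2 scale only and 283 above on the CPM scale only. Signs that went against each other were found for 9 genes, all below additive in log2 and above it in CPM, and for 0 genes in the converse sense. The counts over gene lists below are those of the log2 scale, read against 6.36% of all genes below and 1.23% above, with the counts in CPM named as such beside them and read against 4.83% and 2.86%.

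**Figure D1:**
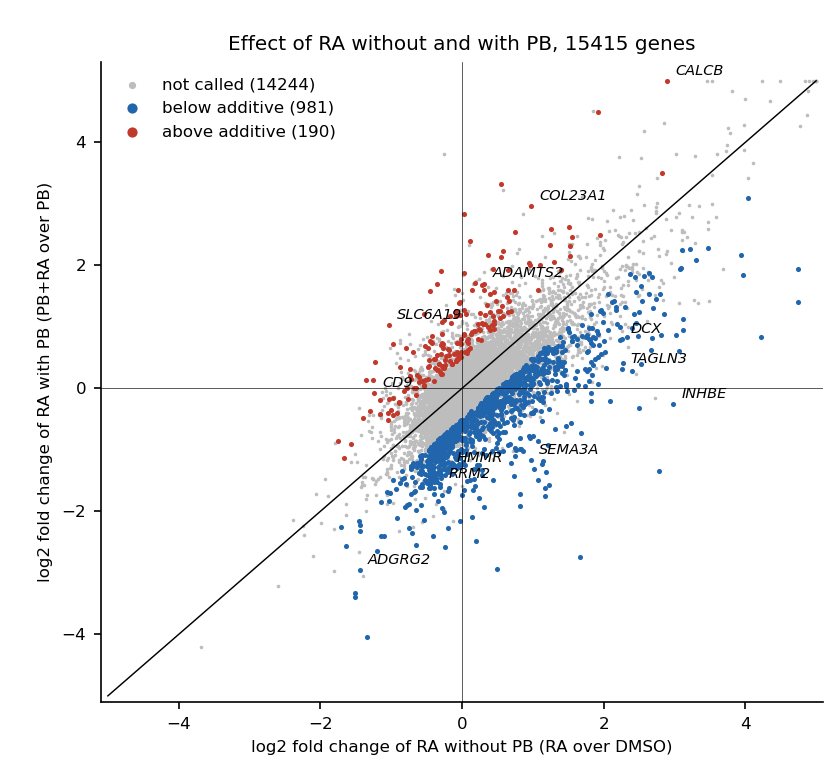
Effect of RA without PB (x axis, log2 fold change of RA over DMSO) and with PB (y axis, log2 fold change of PB+RA over PB) for the 15415 genes tested. Each point is a gene and the diagonal is additivity on the log2 scale, with 981 genes below additive in blue, 190 above in red and 12 points drawn at the axis limit of 5. The median blue gene stands at 0.33 on the x axis and -0.56 on the y axis, and the median red gene at -0.07 and 0.75. Genes were coloured by the difference between both axes, so these medians only describe the calls.

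The called genes were described by the 2 effects of RA, which share no library with each other. The genes were called on the difference between these effects, which limits the combinations that could occur, so the counts only describe the calls. Of the 981 genes below additive, 405 were not called for RA alone but were lower with RA on PB, 274 were higher with RA alone and not called with RA on PB, 103 were higher both times and 31 turned from higher to lower. Of the 190 genes above additive, 90 were higher with RA only in the presence of PB, 35 were lower with RA only in its absence and 31 were higher both times. Read by group means, both single agents stood over DMSO for 527 of the genes below additive. Among these, PB+RA stood over both single agents for 141, between DMSO and the higher single agent for 311 and under DMSO for 75. For another 266 both single means and the PB+RA mean were under DMSO, with PB+RA the lowest of the 4 for all 266. The sections that follow take these patterns by function, over 36 gene lists. The lists of cell-cycle, synaptic and matrix genes cover terms that the study examined on these libraries, so their counts are not independent evidence.

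Genes of cell division formed the group with the largest share below additive. The list of mitosis and kinetochore genes had 39 of 53 members below (73.6%) with a median log2 interaction of -0.68, the list of homologous recombination and Fanconi repair 17 of 31 (54.8%, median -0.51), and the list of DNA replication and S phase 21 of 43 (48.8%, median -0.51). No member of these lists was above. RA alone lowered 3 of their 127 distinct genes, and RA on PB lowered 111, beside 509 and 1279 of all 15415 genes tested. In terms of group means, the median member was 20.1% lower in RA than in DMSO but 46.3% lower in PB+RA than in PB. Likewise PB lowered the median member by 49.1% without RA and by 66.2% with it. The same 127 genes gave 0 calls in CPM, with a median departure of -5.95% of the mean: the median difference between RA and DMSO was -17.6 CPM and that between PB+RA and PB was -21.6 CPM. The counts of the mitosis list were 45 in replicates 1 and 2 alone, 29 in replicates 3 and 4 alone and 37 with no replicate block. Those of the repair list were 20, 7 and 16, and those of the replication list 26, 14 and 19.

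Promoter letters are shown for HMMR, RRM2 and UHRF1 from these lists and for E2F2 from the list of E2F factors described below. They are called genes chosen for the elements they hold, to let a reader see what members share. Promoters were taken from RefSeq (GRCh38.p14), from 250 bases before to 50 after the start of the gene, and matched 37 of 43 replication genes, 43 of 53 mitosis genes and 26 of 31 repair genes. An E2F site, TTTGGCGC or TTTCCCGC on either strand, stood in 48.6% of the matched replication promoters, 23.1% of the repair promoters and 4.65% of the mitosis promoters, beside 2.27% of all 35116 promoters of the table. The CHR, TTTGAA on either strand, stood in 62.8% of mitosis promoters and 2.70% of replication promoters, beside 15.2% of all. CCAAT on either strand stood in 76.7% of mitosis and 56.8% of replication promoters, beside 34.6% of all. Among the matched promoters of all tested genes, 3.68% held an E2F site, 9.69% a CHR and 36.4% CCAAT. The 120 bases before the start are printed from 5′ to 3′ on the strand of the gene, with these elements in capitals. In HMMR, CCAAT on one strand overlaps CCAAT on the other:
HMMR (mitosis, chr5:163460512-163460631, plus strand): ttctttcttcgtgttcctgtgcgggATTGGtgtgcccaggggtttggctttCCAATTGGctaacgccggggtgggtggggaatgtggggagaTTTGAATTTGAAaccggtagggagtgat
RRM2 (replication, chr2:10122619-10122738, plus strand): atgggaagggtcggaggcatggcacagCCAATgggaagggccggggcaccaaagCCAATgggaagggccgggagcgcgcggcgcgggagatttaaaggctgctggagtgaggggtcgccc
UHRF1 (replication, chr19:4909381-4909500, plus strand): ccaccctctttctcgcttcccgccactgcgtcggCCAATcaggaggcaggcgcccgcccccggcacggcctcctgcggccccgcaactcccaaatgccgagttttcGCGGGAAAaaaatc
E2F2 (E2F factors, chr1:23531234-23531353, minus strand): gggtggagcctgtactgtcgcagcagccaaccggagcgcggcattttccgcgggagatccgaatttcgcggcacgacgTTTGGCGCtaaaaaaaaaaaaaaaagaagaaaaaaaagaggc
The HMMR stretch holds both CCAAT and CHR, RRM2 holds 2 CCAAT boxes, UHRF1 a CCAAT box and an E2F site, and E2F2 an E2F site. Of the matched promoters, 11 of 18 replication genes with an E2F site and 8 of 19 without were below additive, and so were 20 of 27 mitosis genes with a CHR and 13 of 16 without, with no test of the difference.

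HMMR, a microtubule-associated protein of the mitotic spindle (chr5:162887209-162918947, GENCODE genes on GRCh37, as for all gene positions below), stood at 81.2, 83.6, 79.1 and 84.5 CPM in DMSO and 74, 72.2, 67.2 and 72.1 in RA. It stood at 34.4, 31.4, 34.7 and 38.8 in PB and 11.6, 10.7, 16.9 and 17.7 in PB+RA. The 4 groups did not overlap in the order DMSO, RA, PB, PB+RA, and PB+RA lay under the 30.3 CPM that multiplied effects give, with a log2 interaction of -1.10 (SE 0.14, adjusted p = 8.35e-05). In CPM the departure was -9.93 CPM (SE 2.66) from a sum of 24.2, which was not past the 35% minimum. UBE2C, the ubiquitin-conjugating enzyme of the anaphase-promoting complex, had a log2 interaction of -1.04 (SE 0.11, adjusted p = 7.25e-06), with means of 168, 136, 81.4 and 32.1 CPM in DMSO, RA, PB and PB+RA.

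RRM2, the regulated subunit of ribonucleotide reductase, which makes deoxynucleotides (chr2:10260825-10351851), stood at 398, 386, 391 and 396 CPM in DMSO, 335, 309, 313 and 304 in RA, 144, 132, 185 and 198 in PB and 38.3, 39.8, 75.2 and 73 in PB+RA. Replicates 1 and 2 were the lower pair in both PB groups, and no group overlapped another. Its log2 interaction was -1.25 (SE 0.25, adjusted p = 0.00689). UHRF1, which carries DNA methylation through replication, stood at 49.3, 45.6, 57.6 and 56.8 CPM in PB and 17.6, 16.5, 27.3 and 27.2 in PB+RA, while DMSO spanned 122 to 134 and RA 109 to 126 CPM. The DMSO and RA ranges overlap, and the interaction of -1.14 (SE 0.20, adjusted p = 0.00247) went with a log2 fold change by RA of -0.11 alone and -1.25 on PB. MCM10, which helps to start the replicative helicase, had an interaction of -1.07 (SE 0.16, adjusted p = 0.000314).

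Among E2F factors, pocket proteins and G1 cyclins 8 of 25 members were below additive (32%), beside 6.36% of all genes, and in CPM 2 were above and 3 below. The log2 count below was 12 in replicates 1 and 2 alone, 8 in replicates 3 and 4 alone and 6 with no replicate block. E2F2, an activating E2F (chr1:23832930-23857725), stood at 48, 52.4, 46.9 and 44.7 CPM in DMSO, 38.4, 43.2, 35.9 and 35 in RA, 14.1, 14.5, 15.2 and 16.2 in PB and 4.1, 3.59, 5.15 and 4.02 in PB+RA. The DMSO and RA ranges did not overlap, although RA alone was not called, and PB+RA was the lowest group. Its log2 interaction was -1.49 (SE 0.13, adjusted p = 1.83e-07), and in CPM the departure was -0.922 CPM (SE 1.62). MYBL2, the MYB protein that joins MuvB to activate mitotic genes, had an interaction of -1.18 (SE 0.07, adjusted p = 2.3e-09) with means of 511, 499, 225 and 96.6 CPM. E2F1, the founding activating E2F, gave -1.02 (SE 0.10, adjusted p = 4.76e-06). CDK2, the kinase of the G1 to S transition, gave -0.66 (95% interval -1.13 to -0.19, adjusted p = 0.0583) and the repressive E2F8 -0.67 (95% interval -1.36 to 0.02, adjusted p = 0.186), neither of which was called. Both agents lowered E2F8, and its CPM departure of 2.21 CPM (SE 0.543) was called above the sum.

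**Figure D2:**
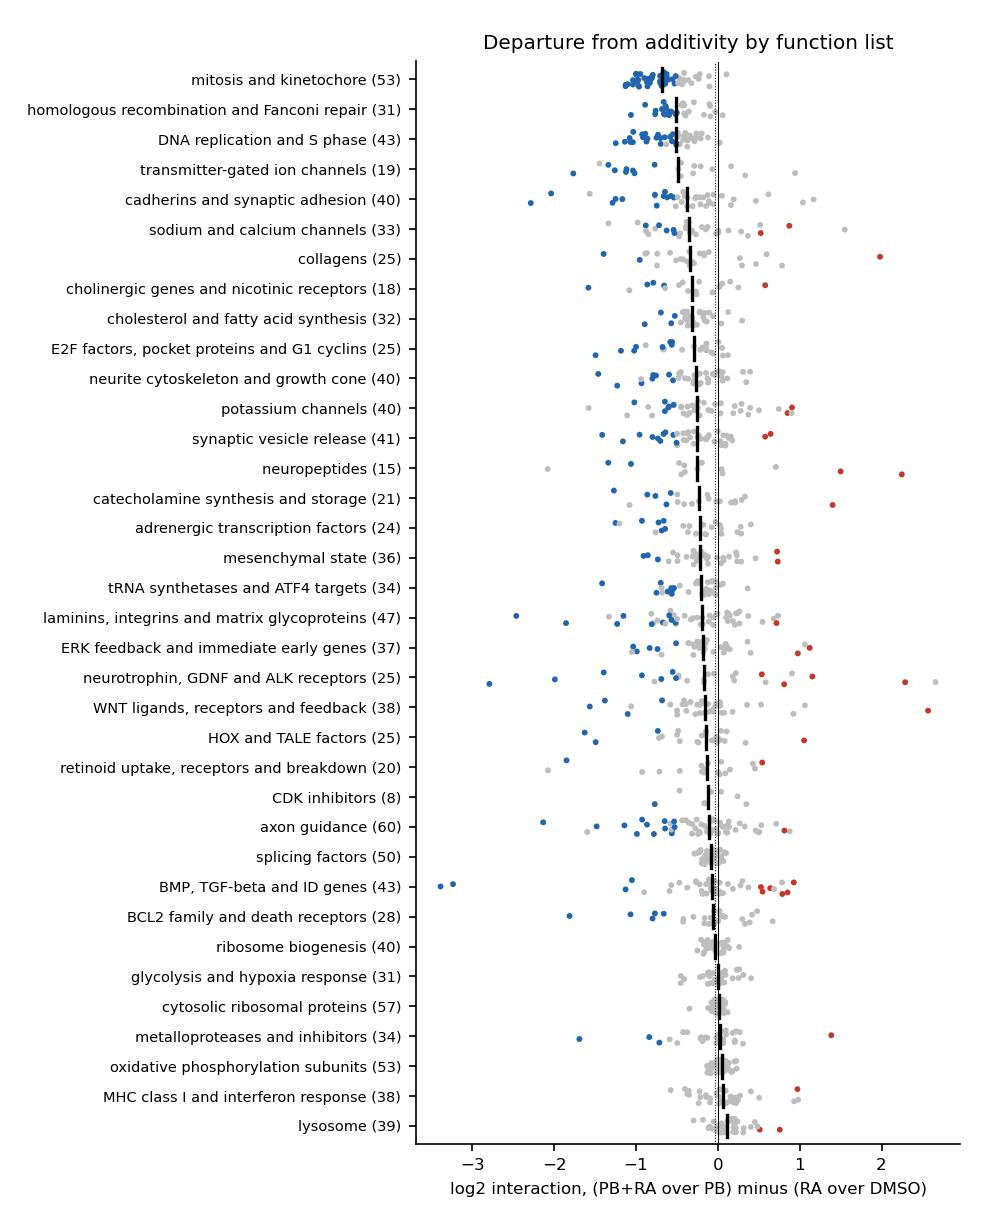
Log2 interaction of the members of 36 function lists (x axis), each row a list with its number of genes tested in brackets, ordered by median. Points are genes, blue for below additive, red for above and grey for not called, black bars are medians and the dotted line is the median of all genes at -0.04; mitosis (median -0.68), repair and replication lie furthest left, while splicing, ribosomal and respiratory lists hug zero.

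Growth and housekeeping functions stayed near additivity. Of 50 splicing factors 0 were called and all 50 had intervals within 0.5 of 0, while PB lowered 25 of them and PB+RA 40. Over all 15415 genes tested, PB lowered 1865 and PB+RA 2863. Cytosolic ribosomal proteins (0 of 57 called, 56 within 0.5), ribosome biogenesis (0 of 40, 40 within) and subunits of oxidative phosphorylation (0 of 53, 53 within) were as close to additive. Genes of glycolysis and the hypoxia response gave 0 calls of 31, with 25 intervals within 0.5. In CPM these 5 lists gave 1 call, below the sum, in the glycolysis list. The lysosome list gave 2 calls above of 39 and the most positive median of any list, 0.12, beside -0.04 for all genes, with a median of 13.2% of the mean and 5 calls above in CPM.

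**Figure D3:**
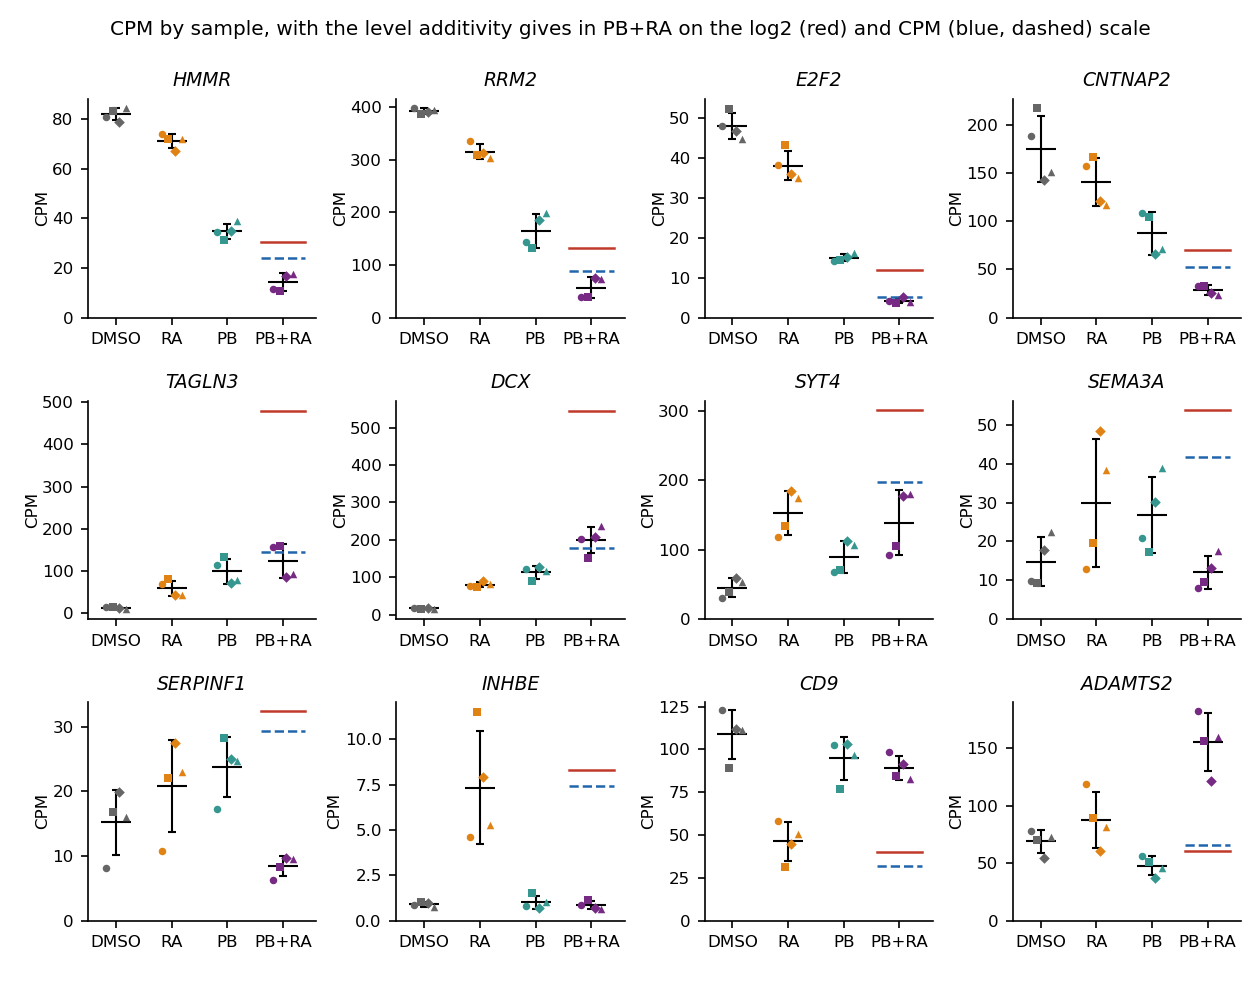
CPM (y axes) of 12 genes in the 4 groups (x axes), with a point for each sample (circle, square, diamond and triangle for replicates 1 to 4), and the mean ± SD of 4 samples in black. The red line is the PB+RA level expected if log2 effects add and the dashed blue line that if CPM effects add: HMMR, RRM2, E2F2 and CNTNAP2 fell under red, TAGLN3, DCX and SYT4 rose less than red, SEMA3A, SERPINF1 and INHBE stood with PB+RA under RA, and CD9 and ADAMTS2 stood over both lines.

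Among neuronal genes the departures were mostly downward, and genes such as DCX and STMN4 were raised by both agents, but less than in proportion. Of 40 genes of the neurite cytoskeleton and growth cone 8 were below additive (20%) and 0 above, of 41 genes of synaptic vesicle release 10 (24.4%) and 2, and of 21 genes of catecholamine synthesis and storage 5 (23.8%) and 1, beside 6.36% and 1.23% of all genes. With no replicate block the counts below were 6, 3 and 2. In CPM the counts below were 4, 5 and 3 and those above 0, 2 and 1. TAGLN3, a neuronal calponin-like actin-binding protein (chr3:111717586-111732734), stood at 13.6, 15.1, 10.6 and 8.8 CPM in DMSO, 67.5, 79.96, 43.1 and 43.1 in RA, 114, 132, 70.8 and 78.2 in PB and 157, 159, 86.1 and 91.8 in PB+RA. Replicates 1 and 2 stood above 3 and 4 in every group, and the PB range overlaps those of RA and PB+RA. Multiplied effects would have given 480.4 CPM, and the log2 interaction was -1.95 (SE 0.09, adjusted p = 2.48e-11). The sum in CPM was 145, from which PB+RA departed by -21.8 CPM (SE 4.09), which was not past the 35% minimum.

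DCX, the microtubule-binding doublecortin of migrating neurons (chrX:110537007-110655657), stood at 18.2, 14.7, 17.6 and 16.4 CPM in DMSO, 77, 73.2, 89.1 and 80.9 in RA, 122, 88.8, 128 and 117 in PB and 201, 152, 207 and 236 in PB+RA. PB+RA was the highest group with no overlap, yet under the product of 546 CPM and near the sum of 177, with a log2 interaction of -1.46 (SE 0.10, adjusted p = 2.57e-08) and a CPM departure of 21.8 CPM (SE 7.18). STMN4, a neuronal stathmin, gave -1.23 (SE 0.11, adjusted p = 8.54e-07) with a CPM departure of 15.5 CPM (SE 2.62), and KIF5C, a kinesin of axonal transport, gave -0.80 (SE 0.07, adjusted p = 1.83e-07) with -19.3 CPM (SE 4.89). In contrast STMN2, another stathmin of growing neurites, was additive within 0.5 on the log2 scale, at -0.06 (95% interval -0.22 to 0.09, adjusted p = 0.636). TMEM59L, a neuronal membrane protein raised from 12.7 CPM to 49.4 by RA and 71.5 by PB, was among the 9 genes whose scales disagreed: at 171 CPM PB+RA was under the product, with a log2 interaction of -0.70 (SE 0.10, adjusted p = 0.0001), and over the sum by 62.7 CPM (SE 4.47). Its call on the log2 scale was lost with no replicate block (adjusted p = 0.137).

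SYT4, a synaptotagmin of secretory vesicles (chr18:40847857-40857500), stood at 30.6, 38.6, 58.7 and 54 CPM in DMSO, 118, 134, 185 and 175 in RA, 68.3, 70.2, 113 and 107 in PB and 92.4, 105, 178 and 181 in PB+RA. Replicates 3 and 4 stood above 1 and 2 in every group, and PB+RA overlapped RA. PB raised SYT4 alone (0.99 in log2) but was not called on RA (-0.17). The log2 interaction was -1.16 (SE 0.09, adjusted p = 2.82e-08) and the CPM departure was -58.1 CPM (SE 4.85), both called. CHGB, a granin of dense-core vesicles, had means of 463, 683, 2079 and 1679 CPM and a log2 interaction of -0.86 (SE 0.11, adjusted p = 0.000122). DBH, which turns dopamine into noradrenaline, had means of 342, 503, 569 and 557 CPM, with PB+RA overlapping PB, and an interaction of -0.63 (SE 0.12, adjusted p = 0.00212). With no replicate block the calls of SYT4 and DBH were lost (adjusted p = 0.114 and 0.26), and DBH was not called in replicates 1 and 2 alone (-0.37). CHRM3, a muscarinic receptor, had means of 16.2, 36, 31.1 and 38.1 CPM and an interaction of -0.86 (SE 0.15, adjusted p = 0.000587), lost with no block (adjusted p = 0.0676).

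Another set of genes stood higher with a single agent and low with both. SEMA3A, a secreted repellent of growing axons (chr7:83585093-84122040), stood at 9.77, 9.35, 17.9 and 22.3 CPM in DMSO, 12.8, 19.6, 48.5 and 38.5 in RA, 20.9, 17.3, 30.2 and 38.9 in PB and 8.09, 9.55, 13.1 and 17.4 in PB+RA. Replicates 3 and 4 stood above 1 and 2 in every group, so that the ranges overlap, but PB+RA stood under RA and PB in every replicate number. RA raised SEMA3A alone (0.97) and lowered it on PB (-1.16), an interaction of -2.13 (SE 0.25, adjusted p = 0.000125), while the CPM departure of -29.8 CPM (SE 7.45) was not called. SERPINF1, the secreted neurotrophic and antiangiogenic factor PEDF (chr17:1665323-1680859), stood at 8.17, 16.8, 19.97 and 16 CPM in DMSO, 10.8, 22, 27.5 and 22.9 in RA, 17.2, 28.3, 25.1 and 24.6 in PB and 6.35, 8.37, 9.7 and 9.49 in PB+RA. PB+RA was the lowest group in every replicate number, and PB, which raised the gene alone (0.68), lowered it on RA (-1.26). The interaction was -1.94 (SE 0.16, adjusted p = 2.01e-07) and the CPM departure -20.9 CPM (SE 1.65). PTPRK, a receptor tyrosine phosphatase, had means of 11.6, 19.6, 16.2 and 8.25 CPM with -1.73 (SE 0.15, adjusted p = 1.83e-07), and both scales called it.

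Of 60 axon guidance genes 13 were below additive (21.7%) and 1 above, or 6 and 0 with no replicate block, and in CPM 19 below and 3 above. Besides SEMA3A they included SEMA3F, of the same family of secreted semaphorins, with means of 8.57, 7.48, 10.1 and 4.48 CPM and an interaction of -0.99 (SE 0.17, adjusted p = 0.000269). Neither single agent was called for SEMA3F, and PB+RA stood at 3.31, 4.03, 4.75 and 5.83 CPM, under every sample of the other groups, which spanned 6.06 to 10.4. SEMA3D gave -1.48 (SE 0.24, adjusted p = 0.00103), which was lost with no replicate block (adjusted p = 0.086). Transmitter-gated ion channels had 8 of 19 members below (42.1%) and 0 above, counts that were 3 in replicates 1 and 2 alone, 9 in replicates 3 and 4 alone, 2 with no block and 4 without replicate 3. In CPM 6 were below and 0 above. HTR3B, a serotonin-gated channel subunit, fell with both agents, from 10.8, 14.7, 10.4 and 10.3 CPM in DMSO to 0.671, 1.58, 1.48 and 1.51 in PB+RA, with an interaction of -1.34 (SE 0.27, adjusted p = 0.00196) but a CPM departure of 0.394 CPM (SE 0.683). Cadherins and synaptic adhesion genes had 12 of 40 below (30%), or 7 with no block, and in CPM 12 below and 2 above. They included CNTNAP2, an adhesion protein of the axon, with means of 175, 141, 87.7 and 28.6 CPM and -1.29 (SE 0.08, adjusted p = 2.8e-09). KCNJ8, a potassium channel subunit, was near level in DMSO, RA and PB (97.2 to 141 CPM over 12 samples) and stood at 71.4, 70.6, 76.4 and 81 CPM in PB+RA, an interaction of -0.65 (SE 0.08, adjusted p = 2.22e-05).

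Departures of stress, lipid and death genes were downward on the log2 scale. Of 34 tRNA synthetases and ATF4 targets 8 were below (23.5%, beside 6.36% of all genes) and 0 above, with 7 below in CPM, and none of the 8 is a tRNA synthetase. TRIB3, a pseudokinase induced by ATF4, stood at 30.4, 42.3, 39.1 and 35.1 CPM in RA, over all samples of DMSO, PB and PB+RA, which spanned 17.7 to 25.6. Its interaction was -0.61 (SE 0.09, adjusted p = 6.84e-05), and that of the stress-induced sestrin SESN2 was -0.75 (SE 0.10, adjusted p = 2.18e-05). The cholesterol and fatty acid list had 4 of 32 below (12.5%), and 5 in CPM. Among these TM7SF2, a sterol reductase, stood at 13.2 CPM in DMSO and at 23.1, 23.2 and 21.9 in RA, PB and PB+RA on average, for -0.89 (SE 0.13, adjusted p = 0.00011). The list had 2 members below without replicate 1, 7 in replicates 1 and 2 alone and 1 in replicates 3 and 4 alone.

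Of 28 BCL2 family and death receptor genes 5 were below additive (17.9%, beside 6.36% of all genes), or 3 with no block, and in CPM 3 were below and 2 above. BBC3, the BH3-only protein PUMA, stood at 4.32, 4.9, 3.88 and 3.59 CPM in DMSO, 5.73, 7.71, 8.15 and 6.33 in RA, 15.1, 18.9, 18.8 and 16.8 in PB and 14.6, 15.7, 13.6 and 11.8 in PB+RA. RA raised it alone (0.75) but not on PB (-0.32), for an interaction of -1.07 (SE 0.14, adjusted p = 2.81e-05). PMAIP1, the BH3-only protein NOXA, gave -0.80 (SE 0.11, adjusted p = 4.66e-05) from means of 25.2, 33.8, 29.4 and 22.9 CPM.

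Some genes of signalling and matrix lists that were below additive were raised by RA alone, and less or not at all by RA on PB. INHBE, an activin subunit (chr12:57846106-57853063), stood at 4.62, 11.5, 7.92 and 5.3 CPM in RA and at 0.653 to 1.51 CPM in all 12 samples of the other groups. RA raised it alone (2.98) but not on PB (-0.26), and the interaction was -3.24 (SE 0.31, adjusted p = 8.54e-07). Its CPM departure of -6.61 CPM (SE 1.37) was not called (adjusted p = 0.0501). DUSP6, the phosphatase that ERK signalling induces against itself (chr12:89741012-89746278), stood at 70.3, 70.3, 80.2 and 88.1 CPM in DMSO, 253, 236, 339 and 353 in RA, 78.3, 71.3, 86.2 and 95 in PB and 129, 126, 175 and 188 in PB+RA. DMSO and PB overlap and RA stands highest, so RA raised DUSP6 by 1.92 without PB and 0.89 with it, an interaction of -1.03 (SE 0.08, adjusted p = 2.57e-08) that was called in CPM as well, at -146 CPM (SE 9.37). LTBP2, a matrix protein of the TGF-beta binding family, gave -1.05 (SE 0.17, adjusted p = 0.000241) and COL7A1, the anchoring-fibril collagen, which PB alone raised as well (0.51), -1.40 (SE 0.16, adjusted p = 4.13e-06). GFRA1, the receptor for GDNF, stood at 4.95, 7.07, 9.31 and 10.9 CPM in RA and at 0.387 to 1.81 CPM elsewhere, with -1.99 (SE 0.40, adjusted p = 0.00162). LAMA4, a laminin chain of vessels and nerves, was raised to 36.6 CPM by RA, 24.5 by PB and 39.9 by both from 4.21, an interaction of -2.46 (SE 0.32, adjusted p = 0.000425).

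Genes above additive were fewer and more scattered over functions. The list with the largest share above was that of neurotrophin, GDNF and ALK receptors, with 4 of 25 above (16%) and 7 below, followed by the BMP, TGF-beta and ID genes with 6 of 43 above (14%) and 4 below. In CPM the first had 4 above and 4 below and the second 7 and 3. With no replicate block the log2 counts above were 2 and 4, and without replicate 2 or 3 the first was 2. ADAMTS2, a procollagen protease (chr5:178537854-178772462), stood at 77.9, 70.7, 55 and 73.2 CPM in DMSO, 119, 89.5, 60.3 and 81.7 in RA, 56.7, 50.9, 37.4 and 46.3 in PB and 183, 157, 122 and 159.9 in PB+RA. PB lowered it alone (-0.54) and raised it on RA (0.85), so that PB+RA was highest with no overlap, and the interaction was 1.39 (SE 0.09, adjusted p = 2.8e-09).

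PLSCR1, a phospholipid scramblase, was also lowered by PB alone and higher in PB+RA than in RA, with means of 9.6, 14.7, 4.96 and 23.6 CPM and an interaction of 1.64 (SE 0.20, adjusted p = 2.63e-05). CD9, a tetraspanin, stood at 58.4, 31.3, 45 and 50.5 CPM in RA, under all samples of the other groups (76.7 to 123 CPM), so that RA lowered it without PB (-1.25) but not with it (-0.08), for 1.17 (SE 0.12, adjusted p = 5.07e-06). KCNK3, the TASK1 potassium channel, stood at 100.5, 49.6, 57 and 51.1 CPM on average: each single agent lowered it, and PB+RA overlapped both, for 0.85 (SE 0.11, adjusted p = 6.08e-05). COL23A1, a transmembrane collagen, stood at 2.5, 3.17, 0.801 and 0.849 CPM in DMSO, 4.54, 6.78, 1.55 and 1.66 in RA, 3.54, 4.44, 1.4 and 1.83 in PB and 34.3, 37.6, 7.99 and 10.9 in PB+RA, with replicates 1 and 2 above 3 and 4 in each group. Its CPM departure of 18.1 CPM (SE 6.19) was not called, and its log2 interaction of 1.98 (SE 0.20, adjusted p = 1.18e-06) was lost with no replicate block (adjusted p = 0.26). SNAI1, a repressor of epithelial genes, gave 0.73 (SE 0.12, adjusted p = 0.000331), with 12.8, 11, 18 and 19.4 CPM in PB+RA, overlapping PB within 6.63 to 11.3 CPM of the other samples, and was lost with no block (adjusted p = 0.133) and in replicates 1 and 2 alone (0.56).

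Of 20 genes of retinoid uptake, receptors and breakdown 1 was above and 1 below (5% each, beside 1.23% and 6.36% of all genes), as in CPM, and 9 had intervals within 0.5 of 0, beside 57.5% of all genes. RA raised 13 of them without PB and 11 with it, beside 2007 and 1649 of all 15415 genes tested. CYP26B1, which degrades retinoic acid, stood at 0.713, 1.03, 2.21 and 1.43 CPM in DMSO, 125, 121, 172 and 192 in RA, 3.12, 1.61, 3.15 and 1.78 in PB and 224, 189.9, 248 and 298 in PB+RA. Its log2 interaction was -0.17 (95% interval -0.85 to 0.51, adjusted p = 0.776). In CPM PB+RA stood 86.4 CPM (SE 5.77) over the sum, and that was called. CYP26A1, of the same enzyme family, spanned 0.0357 to 0.165 CPM in DMSO, 47.7 to 107 in RA, 0.319 to 1.06 in PB and 51 to 211 in PB+RA. Its log2 interaction of -2.08 (95% interval -4.78 to 0.63, adjusted p = 0.304) was not called, with DMSO values near or under the limit that a count of 0 allows and an interval too wide to place it as additive or not. RARB, the retinoic acid receptor beta (chr3:24729378-25639423), stood at 7.13, 5.44, 10.2 and 10.2 CPM in DMSO, 22.6, 20.1, 33.9 and 36.1 in RA, 11.4, 9.67, 11.6 and 11.4 in PB and 24.4, 20.5, 28.1 and 37.8 in PB+RA. RA and PB+RA overlap, and the interaction of -0.47 (95% interval -0.78 to -0.16, adjusted p = 0.0366) was under the fold minimum. The RARB promoter is shown because it holds GGTTCA, a half-site of retinoid receptors. On either strand GGTTCA stood in 8.62% of all promoters of the table and in 6.64% of the matched promoters of tested genes. This motif and the CHR are in capitals:
RARB (chr3:25428143-25428262, plus strand): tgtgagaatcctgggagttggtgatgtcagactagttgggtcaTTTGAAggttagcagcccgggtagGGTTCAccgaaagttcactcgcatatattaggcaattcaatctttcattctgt

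The last question was that of genes whose single effects point in opposite directions. PB raised and RA lowered 99 genes (0.642% of those tested), and PB lowered and RA raised 199 (1.29%). Both single effects are measured against the same DMSO libraries. In the first set the median log2 fold changes were 0.92 for PB, -0.86 for RA and 0.04 for PB+RA, and in the second -0.90, 0.82 and -0.04. The PB+RA mean lay between those of the single agents for 86 of the 99 and 180 of the 199, over both for 3 and 5 and under both for 10 and 14. The log2 interaction was not called for 75 of the 99 and 172 of the 199. It was above for 9 and 7 and below for 15 and 20. Within the first set the share below additive was therefore 15.2% and within the second 10.1%, beside 6.36% of all genes. The shares above additive were 9.09% and 3.52%, beside 1.23% of all genes.

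**Figure D4:**
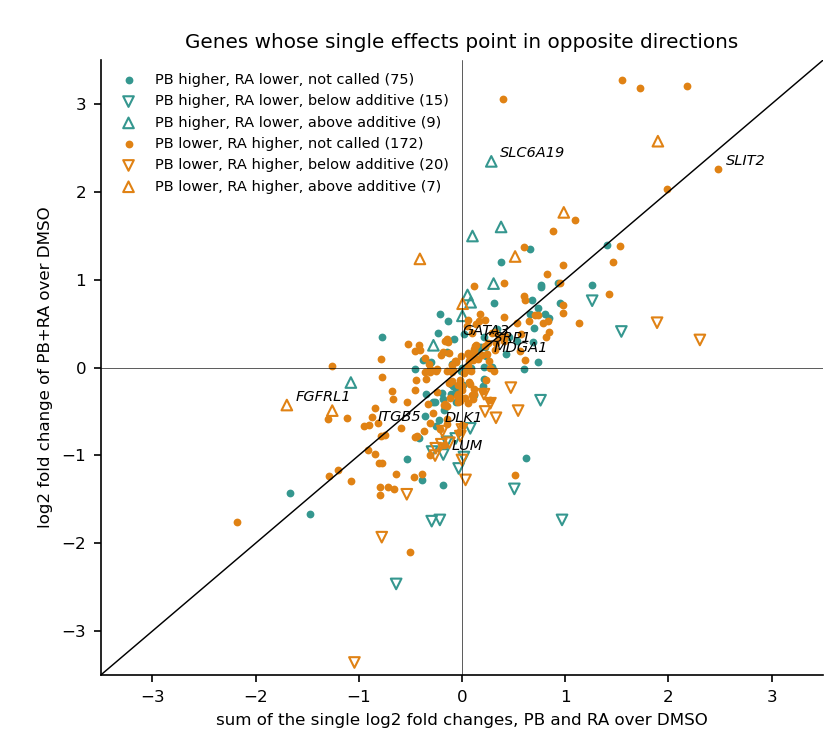
PB+RA over DMSO in log2 (y axis) against both single effects added up in log2 (x axis) for the 99 genes that PB raised and RA lowered (green) and the 199 that PB lowered and RA raised (orange). Filled points were not called for interaction and triangles were called below (pointing down) or above (pointing up) additive; most points gather along the diagonal of additivity, near a sum of 0.

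DLK1, a NOTCH-like membrane protein of chromaffin and sympathetic precursors (chr14:101192042-101204561), belongs to the first set. It stood at 428, 513, 160.4 and 220.5 CPM in DMSO, 115, 206, 55.3 and 60.05 in RA, 1121, 1288, 454 and 565 in PB and 345, 368, 79 and 113 in PB+RA. Replicates 1 and 2 were the higher pair in every group, and within each number the order was PB, DMSO, PB+RA, RA. The log2 interaction of -0.42 (95% interval -0.91 to 0.08, adjusted p = 0.256) was not called. MDGA1, a synaptic adhesion molecule, had means of 57.5, 21.3, 181 and 64.7 CPM and a log2 interaction of -0.10 (95% interval -0.56 to 0.35, adjusted p = 0.796). ADCYAP1R1, the receptor of the neuropeptide PACAP, had means of 12, 5.7, 40.2 and 16.2 CPM and a log2 interaction of -0.25 (95% interval -0.58 to 0.08, adjusted p = 0.318). In CPM both were called below the sum, MDGA1 by -79.6 CPM (SE 7.09) and ADCYAP1R1 by -17.8 CPM (SE 1.48). GATA3, a core adrenergic factor, stood at 108, 58.2, 187 and 133 CPM on average with an interaction of 0.40 (95% interval 0.07 to 0.73, adjusted p = 0.0959). LUM, the matrix proteoglycan lumican, fell in PB+RA to the level of RA (45, 22.1, 78.6 and 22.7 CPM), and its interaction of -0.81 (SE 0.14, adjusted p = 0.000585) was lost with no block (adjusted p = 0.35), while in CPM it was called below the sum by -32.9 CPM (SE 2.33). SLC6A19, an amino acid transporter, was raised by PB, lowered by RA and highest in PB+RA: it stood at 8.77, 5.36, 2.53 and 4.13 CPM in DMSO, 4.33, 3.31, 1.02 and 1.62 in RA, 15.1, 17.2, 8.47 and 10.3 in PB and 26.4, 40.5, 16.9 and 20.6 in PB+RA. Its interaction of 2.06 (SE 0.29, adjusted p = 0.00024) was lost with no block (adjusted p = 0.0731) and in replicates 1 and 2 alone (1.95).

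In the converse set, SPATS2L, an RNA-binding protein of stress granules, stood at 113, 121, 156 and 149 CPM in DMSO, 254, 265, 309.9 and 312 in RA, 42.8, 53.1, 68.6 and 62.5 in PB and 80.2, 85.7, 118 and 123 in PB+RA. PB+RA stood under DMSO in every replicate number, at an interaction of -0.25 (95% interval -0.42 to -0.09, adjusted p = 0.0297) that was under the fold minimum. CSRP1, a LIM protein of the actin cytoskeleton, had means of 36.4, 88, 16.5 and 43.1 CPM and an interaction of 0.12 (95% interval -0.06 to 0.30, adjusted p = 0.394), and PLAUR, the urokinase receptor, 15, 34.6, 7.21 and 18.1 CPM and 0.12 (95% interval -0.14 to 0.38, adjusted p = 0.569). CDKN1A, the CDK inhibitor p21, gave 37.2, 96.1, 26 and 78.7 CPM and 0.24 (95% interval 0.03 to 0.45, adjusted p = 0.118). On the CPM scale SPATS2L, CSRP1 and PLAUR were called below the sum, by -106 CPM (SE 5.9), -24.9 CPM (SE 2.64) and -8.83 CPM (SE 1.33). FGFRL1, a decoy-like FGF receptor, was among the 7 genes of this set above additive on the log2 scale. It stood at 12.8, 16.4, 14.9 and 14.7 CPM in DMSO, 22.5, 23.9, 20.5 and 25.3 in RA, 2.52, 3.61, 1.94 and 3.56 in PB and 9.23, 12.9, 9.58 and 12.4 in PB+RA, for an interaction of 1.27 (SE 0.15, adjusted p = 6.95e-06) but a CPM departure of -0.264 CPM (SE 1.13).

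By function, opposed effects were found for 9 of 60 axon guidance genes (15%), all lowered by PB and raised by RA, beside 1.29% of all genes. They were EPHA2, EPHB3 and EPHB4, which are ephrin receptors, the ephrins EFNA2 and EFNA4, and the secreted or membrane guidance cues SLIT2, NTN4, SEMA5B and SEMA6B, listed here after their values were seen. The opposed call was lost for NTN4 without replicate 2 or 3, for SEMA5B without replicate 3 or 4, and for these 2 genes and EPHB4 with no replicate block. SLIT2 stood at 12.5, 9.6, 10.2 and 10.9 CPM in DMSO, 104, 84, 97.2 and 116 in RA, 6.27, 7.32, 5.42 and 7.21 in PB and 42.6, 47.4, 52.7 and 66.4 in PB+RA, an interaction of -0.22 (SE 0.16, adjusted p = 0.417). EPHB3 stood at 31.1, 31.4, 23 and 27.3 CPM in DMSO, 62.7, 63.4, 65.5 and 75.5 in RA, 20.1, 21.4, 15.3 and 17.2 in PB and 47.4, 43.4, 33.8 and 38.2 in PB+RA, an interaction of -0.12 (SE 0.13, adjusted p = 0.6). In CPM both were called below the sum, SLIT2 by -1.03 times its mean over all samples (adjusted p = 1.52e-07) and EPHB3 by -0.42 times (adjusted p = 0.00838). For both genes the groups did not overlap, in the order RA, PB+RA, DMSO, PB. The mesenchymal list had 4 of 36 in the same direction (11.1%), which were the transcriptional coactivators YAP1 and WWTR1, their partner TEAD4 and S100A10. Transmitter-gated channels had 3 of 19 in the converse direction (15.8%, beside 0.642%), among them GRIA4 and GABRG3, also named after their values were seen. The opposed call of S100A10 was lost without replicate 1 and with no replicate block. Other lists held at least 3 opposed members as well. Lowered by PB and raised by RA were 12% of neurotrophin, GDNF and ALK receptor genes and 10.7% of BCL2 family and death receptor genes. So were 8.51% of laminins, integrins and matrix glycoproteins, 7.89% of MHC class I and interferon genes and 6.98% of BMP, TGF-beta and ID genes. Cadherins and synaptic adhesion genes had 7.5% in this and 7.5% in the converse direction, beside 1.29% and 0.642% of all genes.

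**Figure D5:**
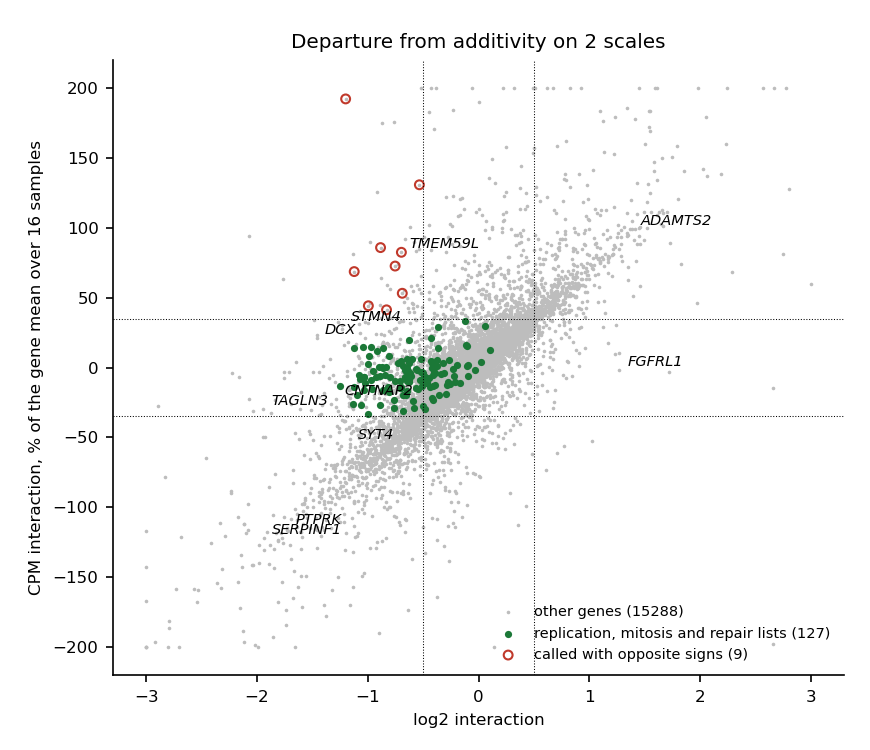
Departure from additivity on the CPM scale (y axis, percent of the gene's mean over 16 samples) against the log2 interaction (x axis) for 15415 genes, with the 127 genes of the replication, mitosis and repair lists in green and the 9 genes called with opposite signs circled in red. Dotted lines mark the minimums of 0.5 and 35%, and 32 points were drawn at the axis limits; the green points spread to the left but stay within the dotted horizontal lines.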

How the data were processed

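RNA was measured by polyA-selected, directional, paired-end sequencing of SK-N-BE(2)C cells. The authors trimmed reads with Trim Galore 0.6.4 and aligned them to hg19 with STAR 2.6.1d, and the deposited table holds raw counts per gene, 27037 genes in 16 samples. The CPM the authors deposited are those counts scaled to each library's total, without TMM factors, and served as an alternative scale. A deposited table of DESeq2 (1.32.0) fold changes and p-values was not used. The annotation release and the strand setting are not given in the sources used here.

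Genes were kept by filterByExpr, scaled by TMM and fitted with edgeR 4.0.16 (quasi-likelihood, robust, R 4.3.3) with a coefficient per group and the replicate number as a block. Each SE is the absolute log2 value over the square root of F. For the CPM scale, PB+RA minus PB minus RA plus DMSO was formed within each replicate number, divided by the gene's mean and tested with limma 3.58.1 (trend, robust). Adjusted p-values are Benjamini-Hochberg over all 15415 genes. DESeq2 1.42.0 and limma-voom were alternatives. The 24 pairs of same-numbered samples from different groups deviated together (r 0.330 to 0.573), while pairs with different numbers reached 0.447. Since every same-numbered pair was above 0.1 and the labels give the numbers, they were taken as pairs. Replicates of a group differed beyond counting noise (chi-square per gene 3.11 to 31.1).

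Groups came from the labels. The genes, the 36 function lists and the tests were chosen with earlier results of these data known. Named genes were the called genes furthest from additivity with a mean of at least 10 CPM, up to 4 called members of each list with 3 or more calls, the opposed genes whose weaker single effect was largest, genes called on both scales, and 13 genes taken whatever their values, among them STMN2, GATA3 and RARB. The opposed members of the guidance, mesenchymal and channel lists were named after their values were seen. The interaction tests were checked on simulated data. Results for some genes are not reported here.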

Additional observations from a re-analysis of the deposited data

Results flagged for a closer look

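In 17 of 564 groups of 4 samples of the named genes (3.01%), 1 sample stood apart from the other 3 by more than Dixon's 95% critical value for the gap over the range, where chance gives about 1 in 20. Of the DMSO samples, replicate 1 stood apart for HAND1 (404.4 CPM), KCNJ8 (112.0), PMAIP1 (22.04) and STARD4 (139.3). Replicate 2 of DMSO did so for ADAMTS4 (4.12), DUSP9 (5.355) and HTR3B (14.75), and replicate 4 for AURKB (95.92). Of the RA samples, replicate 2 stood apart for ADAMTS4 (3.796) and MYCN (3215), replicate 3 for SEMA3G (1.886) and replicate 4 for NPPC (2.468). Replicate 2 of PB stood apart for MYBL2 (262.5), MYCN (6395) and RARB (9.666). In PB+RA it was replicate 2 for AQP1 (71.3) and replicate 1 for HTR3B (0.6707). The log2 calls of KCNJ8, PMAIP1, ADAMTS4, DUSP9, HTR3B, AURKB, NPPC and MYBL2 were kept when any single library was left out. Those of AQP1, STARD4 and SEMA3G were lost without the library that stood apart (log2 interaction 1.12, -0.49 and -1.03) and without others, and HAND1, MYCN and RARB were not called.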

How the results depend on the processing

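The counts above and below additive on the log2 scale (190 and 981) were 594 and 1924 with no fold minimum, 61 and 302 at an absolute log2 above 1, and 64 and 466 with no replicate block. The count above was 287 with no filter, 295 with the replicate block and a GC and length correction, and 308 in replicates 3 and 4 alone, where the count below was 735. By DESeq2 the counts were 201 and 849. Leaving out all 4 libraries of a replicate number gave 142 to 181 above and 784 to 853 below. On the CPM scale the counts of 441 and 744 were 1050 and 1613 with no minimum and 144 and 255 with no replicate block, and 363 to 425 and 610 to 783 without a replicate number. The opposed sets of 99 and 199 genes numbered 60 and 128 with no replicate block and 637 and 604 with no fold minimum, and 86 to 98 and 156 to 192 without a replicate number. Of 121 named genes that were called, 86 kept the call in all 20 leave-outs of a replicate number or a library, 64 lost it with no replicate block and 4 by DESeq2. The causes were not tested. With 4 samples a group, a gene that was not called is not shown to be additive.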
